A study of Mus musculus with 30 samples.

Results

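The collagen genes were all genes whose annotated symbol reads Col, a number, the letter a and a number, and they came to 42 of the 18781 genes measured. Where a gene had several probe sets, as 4 members did, the brightest on average over the arrays used in the tests stood for it. The members comprised 11 fibrillar genes, 6 genes of type IV, Col15a1 and Col18a1 of the basement membrane zone, 6 genes of type VI, 8 fibril-associated genes, 3 short-chain genes, 4 transmembrane genes and 2 others (Col26a1 and Col28a1). Col7a1 and Col9a3 lie only on probe sets that name several genes and have no value here.

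RNA was extracted from 3 tissues of male C57Bl/6 mice (the J substrain, per the study's methods) aged 10 to 12 weeks: white adipose tissue of the epididymal depot (WAT), liver (LIV) and thigh muscle (SM), each as a whole piece. In 5 fasted mice food was removed at the start of the light phase and tissues were taken 24 h later, while 5 fed mice had chow at will. Each mouse and tissue gave 1 Affymetrix Mouse Gene 1.1 ST array, and values are log2 expression, so that a difference of 1 is a doubling. Fed LIV 4 and fasted SM 5 were left out of all means and tests, which leaves 28 of 30 arrays.

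Collagens are proteins built of 3 chains that wind around each other into a triple helix. Apart from the transmembrane types they are secreted, and they make up most of the extracellular matrix. Fibrillar collagens (types I, II, III, V, XI and others) assemble outside the cell into the fibers that carry tension, with type V controlling the start and the width of a fibril. Type IV forms the mesh of basement membranes, the sheets on which epithelial cells, vessels, adipocytes and muscle fibers rest, and types XV and XVIII tie that sheet to the tissue around it. Type VI forms fine beaded filaments close to the cell surface, and fibril-associated collagens such as types XII and XIV sit on the surface of fibrils. In fat and muscle fibroblasts are the main source of fibrillar collagen, in liver the hepatic stellate cells.

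Promoter sequences, from RefSeq on build GRCm38.p6, are shown for Col15a1 and Col3a1, whose changes recur in the results below, and for Col4a1 and Col4a2, which share their start region and did not pass the test in any tissue. Each window runs from 250 bases before to 50 bases after the annotated start, and capitals mark 3 motifs searched on both strands. These are the CCAAT box, written CCAAT and on the opposite strand as ATTGG, the GC box, which is GGGCGG and on the opposite strand reads CCGCCC, and the TATA box, searched as TATAAA and in reverse by the letters TTTATA. The windows are chr4:47207762-47208061 (plus strand, Col15a1), chr1:45311288-45311587 (plus strand, Col3a1), chr8:11312777-11313076 (minus strand, Col4a1) and chr8:11312555-11312854 (plus strand, Col4a2).
Col15a1: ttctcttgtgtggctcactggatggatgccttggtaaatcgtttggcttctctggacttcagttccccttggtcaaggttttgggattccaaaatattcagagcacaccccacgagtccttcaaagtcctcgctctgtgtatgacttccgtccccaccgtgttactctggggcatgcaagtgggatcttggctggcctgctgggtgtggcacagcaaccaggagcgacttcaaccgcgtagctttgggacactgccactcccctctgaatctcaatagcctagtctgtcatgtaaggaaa
Col3a1: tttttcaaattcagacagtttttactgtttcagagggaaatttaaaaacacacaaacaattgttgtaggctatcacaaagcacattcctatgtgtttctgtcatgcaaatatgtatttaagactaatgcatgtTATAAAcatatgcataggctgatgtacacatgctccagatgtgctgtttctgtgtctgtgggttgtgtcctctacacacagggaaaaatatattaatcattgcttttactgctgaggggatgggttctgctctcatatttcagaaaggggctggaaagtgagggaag
Col4a1: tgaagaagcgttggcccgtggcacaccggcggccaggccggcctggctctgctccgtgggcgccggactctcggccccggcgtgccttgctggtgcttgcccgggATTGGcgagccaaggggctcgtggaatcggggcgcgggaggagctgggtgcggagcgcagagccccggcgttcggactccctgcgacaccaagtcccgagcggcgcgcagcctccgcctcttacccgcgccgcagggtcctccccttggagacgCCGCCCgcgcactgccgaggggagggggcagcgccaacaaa
Col4a2: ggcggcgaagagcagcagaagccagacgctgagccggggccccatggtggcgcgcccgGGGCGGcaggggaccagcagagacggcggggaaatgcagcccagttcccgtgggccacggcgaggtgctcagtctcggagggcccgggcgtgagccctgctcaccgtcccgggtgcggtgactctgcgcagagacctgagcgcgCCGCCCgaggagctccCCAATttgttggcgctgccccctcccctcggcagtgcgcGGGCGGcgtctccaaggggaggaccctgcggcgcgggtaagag

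Of the 42 members 34 were matched to a promoter, in 37 windows. GGGCGG, the GC box, stood in 59.5% of the collagen windows and in 35.7% of all 32851 promoters of that length. CCAAT stood in 32.4% against 37.4%, and TATAAA in 13.5% against 13.6%. The Col15a1 window held none of the 3 motifs and the Col3a1 window held TATAAA only. The annotated starts of Col4a1 and Col4a2 lie 21 bases apart on opposite strands, so that their windows share 78 bases. A match describes the letters of a window and is not a measured binding site.

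Marker genes matched the tissue labels. The mean of 9 hepatocyte markers was 12.4 to 12.6 on the LIV arrays used and at most 5.07 elsewhere, and the mean of 12 muscle fiber markers was 12.5 to 12.6 on the SM arrays used and at most 5.16 elsewhere. The mean of 10 adipocyte markers was 11.2 to 11.8 in WAT, but it also ranged from 7.81 to 9.58 in fed SM and from 7.86 to 8.66 in fasted SM. RNA of these genes was thus present in the muscle pieces to varying degrees, and its source was not tested. Fasted SM 5 stood apart by a mean of 7 lymphocyte markers of 7.86, against 3.82 to 4.00 on the other fasted SM arrays. Fed LIV 4 had the lowest correlation with its group of the fed LIV arrays (mean r 0.987, others at least 0.991). Its median over all probe sets was 5.05, against 4.93 to 4.99 on the others. Some collagens stood apart on it, while Col14a1, at 8.40, lay within the 8.32 to 8.61 of the other fed LIV arrays. Its Col4a1 level was 7.05 against 6.09 to 6.34 on the other fed LIV arrays, its Col18a1 level 10.19 against 9.57 to 9.67, and its Col1a1 level 6.98 against 5.98 to 6.49.

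In fed mice most collagen genes that differed between tissues were highest in WAT. Levels were compared only within a probe set, by limma across all probe sets, and a difference was called at a Benjamini-Hochberg adjusted p under 0.05 and at least 1.3-fold. Between WAT and LIV 22 of the 42 members were called (52.4%, against 44.4% of all genes), 19 of them higher in WAT (45.2%, against 25.7%) and 3 lower (7.14%, against 18.7%). Between WAT and SM 26 were called (61.9%, against 47.2% of all genes), with 20 higher in WAT (47.6%, against 27.2%) and 6 lower (14.3%, against 20.1%). Between SM and LIV 22 were called (52.4%, against 47.9% of all genes), with 19 higher in SM (45.2%, against 26.2%) and 3 lower (7.14%, against 21.8%). WAT lay above both other tissues for 18 members, SM for 4 (Col20a1, Col22a1, Col24a1 and Col26a1) and LIV for 2 (Col18a1 and Col27a1).

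Col15a1 had the widest gap between fed WAT, at 10.00 ± 0.18 (SD, n = 5), and fed LIV, at 5.82 ± 0.17 (n = 4), with SM between at 7.76 ± 0.15 (n = 5). Col18a1, the precursor of the antiangiogenic fragment endostatin, ran in another order, with 9.60 ± 0.04 in LIV, 7.37 ± 0.11 in WAT and 5.52 ± 0.14 in SM. All 3 steps of both orders were called. The main chains of types I, III, IV and VI shared 1 order: WAT above SM above LIV. Col3a1 lay at 9.69 ± 0.12, 8.39 ± 0.26 and 6.37 ± 0.19 in that order of tissues, Col4a1 at 9.45 ± 0.16, 7.64 ± 0.16 and 6.24 ± 0.10, and Col6a1 at 9.27 ± 0.04, 8.11 ± 0.17 and 6.00 ± 0.29.

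Several members departed from that order. Col14a1, a fibril-associated collagen, was at 8.46 ± 0.14 in LIV and 8.12 ± 0.08 in WAT, a difference under 1.3-fold (adjusted p = 0.0185), and at 6.36 ± 0.19 in SM, below both. Col6a6 was at 6.84 ± 0.28 in WAT and 6.78 ± 0.17 in SM, which did not differ beyond their spread (adjusted p = 0.748), and at 5.19 ± 0.21 in LIV. Col27a1, a minor fibrillar collagen, was highest in LIV at 6.02 ± 0.08, above SM at 5.30 ± 0.12 and WAT at 5.09 ± 0.11. Col22a1, known at the junction of muscle and tendon, was highest in SM at 5.25 ± 0.12. A total of 18 members lay below the median probe set (5.25) in all 6 groups, 42.9% of the collagens against 37.2% of all genes, and small differences among them were read with that in mind. They were Col4a3, Col4a4, Col4a6, Col6a4, Col8a2, Col9a1, Col9a2, Col10a1, Col11a1, Col11a2, Col13a1, Col16a1, Col17a1, Col19a1, Col24a1, Col25a1, Col26a1 and Col28a1.

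**Figure D1:**
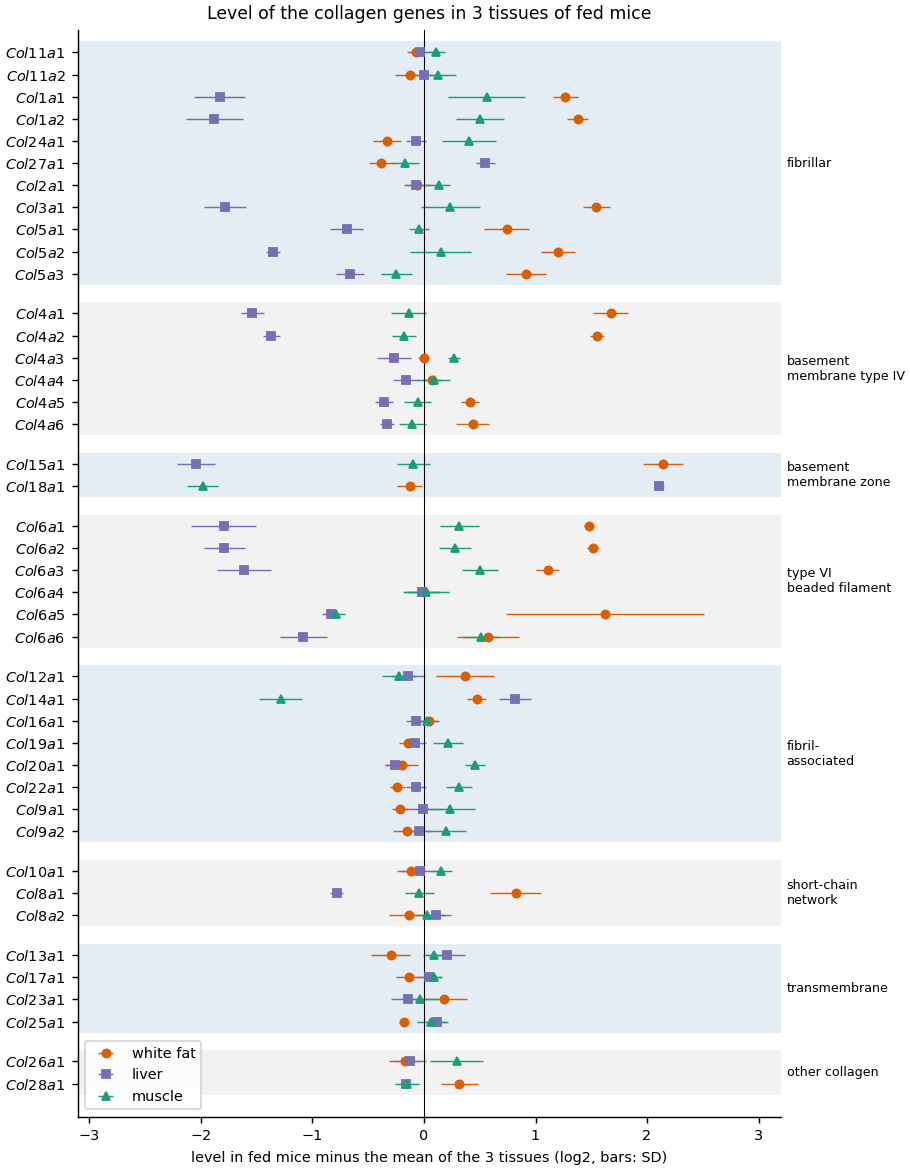
Level of each of the 42 collagen genes in fed WAT (circles, n = 5), LIV (squares, n = 4) and SM (triangles, n = 5), as the tissue mean minus the mean of the 3 tissues on a log2 axis, with bars for the SD. The main fibrillar, type IV and type VI chains line up as WAT, SM, LIV from right to left, while Col18a1 has LIV at the right.

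After 24 h of fasting every collagen gene that passed the test in WAT, LIV or SM was lower in the fasted mice. This holds for the 1 probe set that stood for each gene. The dimmer probe set of Col20a1, not counted here, was called higher in WAT (0.43). In WAT 10 of the 42 members fell (23.8%, against 7.75% of all genes) and 0 rose (against 7.99% of all genes). In SM 11 fell (26.2%, against 5.78% of all genes) and 0 rose (against 7.80%). In LIV 2 fell (4.76%, against 4.01% of all genes, a share near the background) and 0 rose (against 3.53%). At an adjusted p under 0.05 with no minimum fold, 11 members were lower in WAT (26.2%, against 14.6% of all genes), 5 in LIV (11.9%, against 6.91%) and 16 in SM (38.1%, against 11.9%). In the other direction 1 was higher in WAT (Col6a4, 2.38% against 16.3%), 0 in LIV (against 8.55%) and 1 in SM (Col28a1, 2.38% against 14.4%). The LIV count rested on the arrays used. With all 30 arrays, fed LIV 4 included, 6 members were lower in fasted LIV (14.3%, against 3.32% of all genes), the added ones being Col1a1, Col5a3, Col6a3 and Col27a1. Without fasted LIV 1 the count was also 6 (14.3%, against 4.2%), the added ones being Col1a1, Col6a3, Col12a1 and Col27a1. The WAT and SM counts with all 30 arrays were 10 (23.8%, against 7.34%) and 11 (26.2%, against 6.01%). In whole tissue, fewer collagen-making cells and less RNA per cell cannot be told apart.

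The members that fell in WAT and in SM were largely shared. Of the 10 in WAT and the 11 in SM, 9 were the same genes (Col3a1, Col5a1, Col5a2, Col6a1, Col6a2, Col6a3, Col6a6, Col15a1 and Col18a1), which is 21.4% of the collagens, against 1.83% of all genes that fell in both tissues. Col5a3 was called in WAT only, and Col1a1 and Col1a2 in SM only. Col3a1 was the only member called in all 3 tissues, as were 0.351% of all genes. Across the 42 genes the changes in WAT and SM had a Pearson r of 0.78 (0.38 across all genes), those in WAT and LIV 0.40 (0.22) and those in SM and LIV 0.50 (0.17), given as a description across genes, which are not independent and whose arrays were normalized together.

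By class, type IV had 0 of 6 members called in each tissue. Of the 6 type VI genes 4 fell in WAT and 4 in SM, and of the 11 fibrillar genes 4 fell in WAT, 1 in LIV and 5 in SM. Both genes of the basement membrane zone fell in WAT and SM. Of the 8 fibril-associated genes 1 fell, in LIV (Col14a1). None of the 9 short-chain, transmembrane and other genes was called. Over all genes 7.75% fell in WAT, 4.01% in LIV and 5.78% in SM, so 0 or 1 call in a class this small is near the background. Dim in all groups were 3 of the 6 type IV genes, 4 of the 8 fibril-associated genes and most of those 9. The median change over all members was -0.08 in WAT, -0.00 in LIV and -0.16 in SM, against 0.01, 0.03 and -0.00 over all genes. Over the 24 members above the median probe set in at least 1 group it was -0.25, -0.12 and -0.28.

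**Figure D2:**
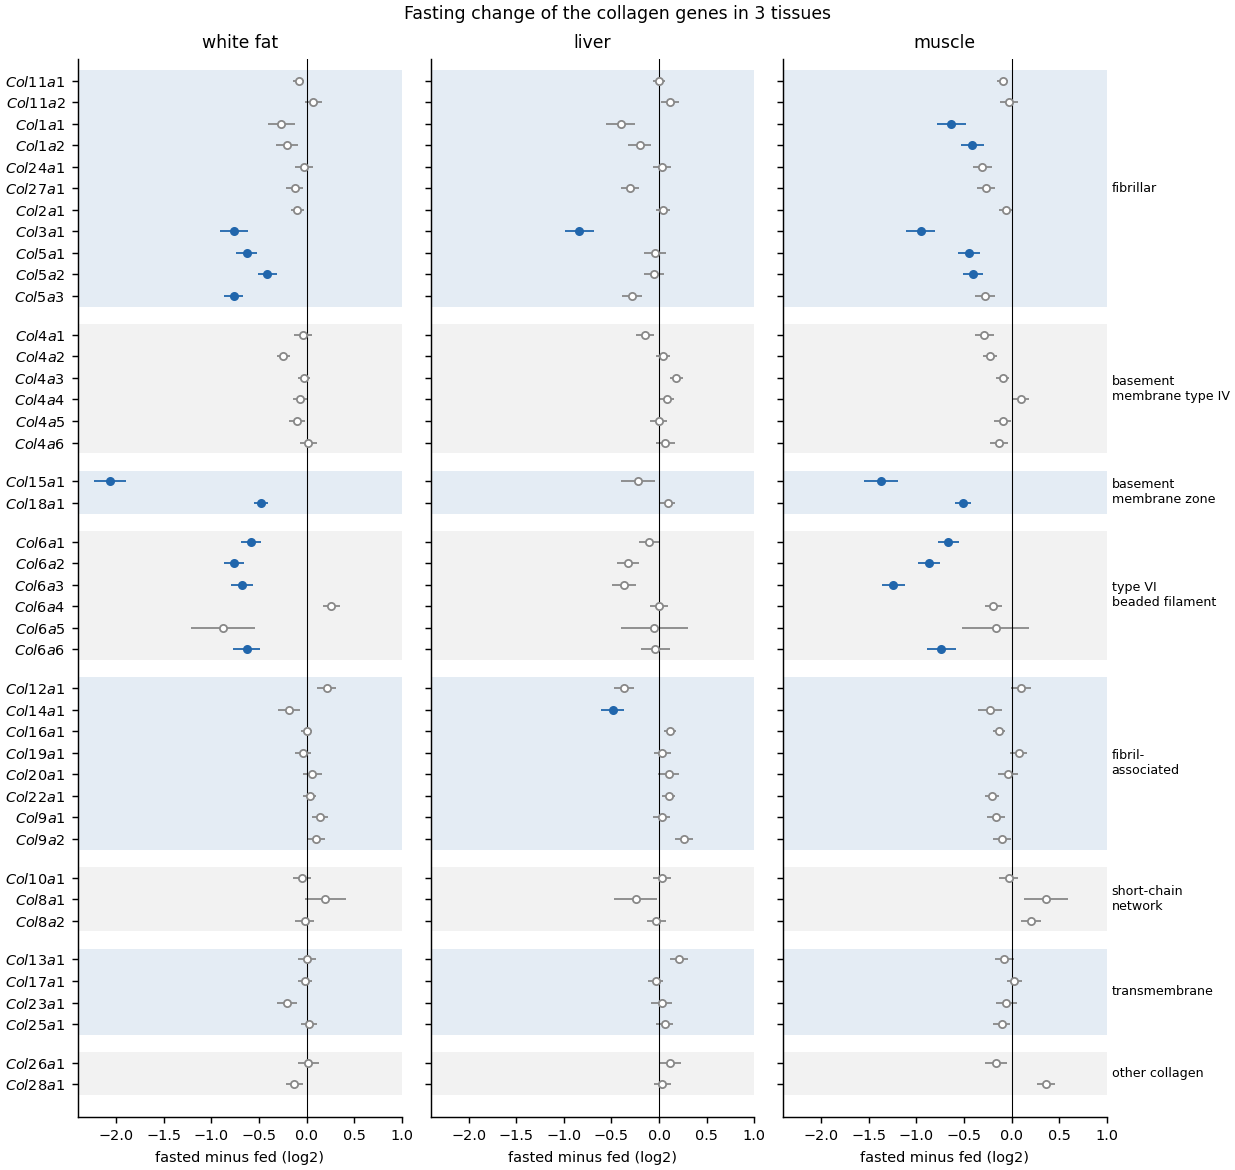
Fasted minus fed log2 change of each collagen gene in WAT, LIV and SM, grouped by class, with bars for the standard error of the limma fit. Filled blue points passed the test and all lie left of 0: 10 in WAT, 2 in LIV and 11 in SM.

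Type I collagen, the heterotrimer of Col1a1 and Col1a2 that forms the bulk of most fibers, was lower in fasted SM and was called in no other tissue. Col1a1 in fed SM was 8.99, 8.55, 8.98, 8.19 and 8.48, and in fasted SM 8.35, 7.96, 7.91 and 7.81. Col1a2 in fed SM was 8.83, 8.48, 8.68, 8.27 and 8.44, and in fasted SM 8.50, 8.03, 7.98 and 7.997. For both chains the fasted array SM 1 lay within the fed range and the other fasted arrays lay below it. In SM Col1a1 fell by 0.63 (SE 0.15, adjusted p = 0.00258, 1.55-fold) and Col1a2 fell by 0.41 (SE 0.12, adjusted p = 0.0125, 1.33-fold). The Col1a2 call was lost without fed SM 1 (-0.34), fasted SM 3 (-0.36) or fasted SM 4 (-0.37). In WAT the differences were -0.26 for Col1a1 (95% interval -0.56 to 0.03, adjusted p = 0.199) and -0.20 for Col1a2 (-0.44 to 0.03, adjusted p = 0.222). In LIV they were -0.40 for Col1a1 (-0.71 to -0.09, adjusted p = 0.0803) and -0.20 for Col1a2 (-0.45 to 0.05, adjusted p = 0.315).

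Type III collagen, a homotrimer of Col3a1 chains found beside type I in elastic and soft tissues, fell in all 3 tissues. In WAT Col3a1 was 9.82, 9.68, 9.62, 9.55 and 9.81 in fed mice and 8.87, 9.13, 8.82, 8.70 and 9.14 in fasted mice. In LIV it was 6.44, 6.59, 6.14 and 6.32 in fed mice and 5.91, 5.51, 5.35, 5.27 and 5.61 in fasted mice. SM arrays gave 8.71, 8.37, 8.54, 8.0003 and 8.31 in fed mice and 7.99, 7.29, 7.32 and 7.13 in fasted mice. The groups did not overlap in any tissue, though fasted SM 1 came close to fed SM 4. Col3a1 fell by 0.76 in WAT (SE 0.14, adjusted p = 0.000165), by 0.84 in LIV (SE 0.15, adjusted p = 0.000292) and by 0.95 in SM (SE 0.15, adjusted p = 2.63e-05), or 1.70-fold, 1.79-fold and 1.93-fold. Its change was not called as different between any 2 tissues.

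Type V collagen sits inside type I and III fibrils and sets their number and width. Col5a1 was 7.18, 7.08, 6.95, 6.95 and 7.44 in fed WAT and 6.33, 6.59, 6.71, 6.24 and 6.57 in fasted WAT, with no overlap. Its SM values were 6.38, 6.46, 6.30, 6.23 and 6.28 in fed mice and 5.99, 5.96, 5.85 and 5.75 in fasted mice, again with no overlap. It fell by 0.63 in WAT (adjusted p = 5.18e-05) and by 0.45 in SM (adjusted p = 0.00492), while in LIV the difference was -0.04 (-0.28 to 0.20). A second probe set of Col5a1, at 4.70 in fed WAT and 4.79 in fed SM, differed by -0.12 in both and was not called, and with the probe sets averaged neither change reached 1.3-fold (-0.37 and -0.28).

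Col5a2, which lies next to Col3a1 on chromosome 1, was 7.21, 7.36, 7.20, 6.95 and 7.27 in fed WAT and 6.86, 6.93, 6.68, 6.67 and 6.79 in fasted WAT. In SM it was 6.55, 6.16, 6.20, 5.81 and 6.02 in fed mice and 5.97, 5.72, 5.51 and 5.76 in fasted mice. The WAT groups just missed each other and the SM groups overlapped at 1 fed array. Col5a2 fell by 0.41 in WAT (adjusted p = 0.00214) and by 0.41 in SM (adjusted p = 0.00503). The WAT call was lost without fed WAT 2 (-0.37), and the SM call without fed SM 1 (-0.31) or fasted SM 3 (-0.33) and with each tissue fitted on its own (-0.41, adjusted p = 0.0592). In LIV, where Col3a1 fell, its neighbor Col5a2 differed by -0.05 (-0.27 to 0.16).

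The third type V chain, Col5a3, was 7.35, 7.76, 7.44, 7.41 and 7.68 in fed WAT and 7.005, 6.60, 6.92, 6.70 and 6.58 in fasted WAT, with no overlap, and fell by 0.77 (SE 0.10, adjusted p = 7.53e-07, 1.70-fold). In SM the difference was -0.28 (-0.49 to -0.06, adjusted p = 0.0546) and in LIV -0.28 (-0.50 to -0.07, adjusted p = 0.0739). Its change in WAT was lower than that in SM by 0.49 (adjusted p = 0.0167) and lower than that in LIV by 0.49 (adjusted p = 0.0169), and both calls were lost with all 30 arrays (-0.41 and -0.37, adjusted p = 0.130 and 0.170). The remaining fibrillar genes were not called. They comprised Col2a1, Col11a1 and Col11a2, known from cartilage, and Col24a1 and Col27a1, and their differences ran from -0.31 (Col27a1 in LIV, adjusted p = 0.0270, and Col24a1 in SM, adjusted p = 0.0242) to 0.11 (Col11a2 in LIV).

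Type VI collagen is a trimer of Col6a1, Col6a2 and Col6a3, and the tail of the Col6a3 chain is the source of the fragment endotrophin, known from fat. Col6a3 was 8.23, 7.96, 8.001, 7.79 and 7.93 in fed SM and 7.01, 6.72, 6.57 and 6.66 in fasted SM. In WAT it was 8.62, 8.47, 8.49, 8.61 and 8.72 in fed mice and 8.20, 7.83, 7.95, 7.90 and 7.64 in fasted mice. Neither pair of groups overlapped, and in SM the gap between them was wider than the range of either group. Col6a3 fell by 1.24 in SM (SE 0.12, adjusted p = 1.64e-08, 2.36-fold) and by 0.68 in WAT (SE 0.12, adjusted p = 5.22e-05, 1.60-fold). The change in SM was the larger by 0.56 (SE 0.17, adjusted p = 0.0223), a difference that was not called without fasted SM 3 (0.50). In LIV the Col6a3 difference was -0.37 (-0.62 to -0.11, adjusted p = 0.0498), just under 1.3-fold.

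Col6a1 and Col6a2, neighbors on chromosome 10, changed together. Col6a2 was 9.46, 9.47, 9.47, 9.37 and 9.51 in fed WAT and 8.68, 8.81, 8.73, 8.52 and 8.75 in fasted WAT. The SM values of Col6a2 were 8.42, 8.16, 8.16, 8.06 and 8.31 in fed mice and 7.69, 7.32, 7.18 and 7.23 in fasted mice. Both falls were free of overlap, at 0.76 in WAT (SE 0.11, adjusted p = 3.34e-06) and 0.87 in SM (SE 0.11, adjusted p = 1.52e-06), or 1.69-fold and 1.82-fold. Col6a1 was 9.20 to 9.31 with a median of 9.28 in fed WAT and 8.49 to 8.91 in fasted WAT, and 7.97 to 8.39 in fed SM and 7.22 to 7.67 in fasted SM with array 5 included. It fell by 0.58 in WAT (adjusted p = 9.85e-05) and by 0.67 in SM (adjusted p = 4.73e-05), also without overlap. In LIV the differences were -0.10 for Col6a1 (-0.33 to 0.13) and -0.33 for Col6a2 (-0.56 to -0.09, adjusted p = 0.0557).

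Col6a4, Col6a5 and Col6a6 encode chains that can take the place of the Col6a3 chain, and they lie side by side on chromosome 9. In WAT Col6a6 and Col6a5 differed by -0.63 and -0.88 and the dim Col6a4 by 0.26. In SM the differences were -0.74, -0.17 and -0.19 in that order, and only Col6a6 was called in either tissue. Col6a6 was 6.81, 6.45, 7.18, 7.004 and 6.76 in fed WAT and 6.04, 6.03, 6.09, 6.15 and 6.75 in fasted WAT, so that only fasted WAT 5 reached the fed range. In SM it was 7.001, 6.71, 6.59, 6.71 and 6.90 in fed mice and 6.27, 6.14, 5.82 and 5.94 in fasted mice, with no overlap. Col6a6 fell by 0.63 in WAT (adjusted p = 0.00128) and by 0.74 in SM (adjusted p = 0.000571), and its second probe set was called lower too, at -0.50 and -0.63.

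Col6a5 varied more than any other member among WAT arrays, at 7.22, 6.12, 7.81, 7.30 and 5.67 in fed mice and 5.44, 5.51, 5.38, 5.65 and 7.72 in fasted mice. Fasted WAT 5 was among the highest of all 10 WAT arrays and the other 4 fasted arrays lay below every fed array. The difference was -0.88 (-1.57 to -0.19, adjusted p = 0.0517), and without fasted WAT 5 it was -1.33 (adjusted p = 0.000137). A second probe set of Col6a5, at 7.76 in fed WAT, differed by -0.95 and was not called either (adjusted p = 0.0802). The Col6a5 difference was called where dim probe sets were left out before adjustment (adjusted p = 0.0331) and after cyclic loess (adjusted p = 0.0407). The mean of 7 mural cell markers moved with it, at 9.07 on fasted WAT 5 against 7.69 to 8.10 on the other fasted WAT arrays and 8.19 to 9.14 on the fed ones. With that mean as a covariate, a choice made after seeing the data, the Col6a5 difference was 0.11 and the Col6a6 difference -0.34 (adjusted p = 0.0715). Col6a4, dim in all groups, differed by 0.26 in WAT (adjusted p = 0.0259, under 1.3-fold) and by -0.19 in SM.

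Type IV collagen has as its common form the trimer of Col4a1 and Col4a2, whose shared start region is printed above. Col4a1 was 9.51, 9.58, 9.40, 9.20 and 9.58 in fed WAT and 9.59, 9.48, 9.54, 9.40 and 9.09 in fasted WAT, where the groups overlapped throughout and the difference was -0.04 (-0.23 to 0.15, adjusted p = 0.860). Col4a2 was 9.42, 9.44, 9.37, 9.44 and 9.53 in fed WAT and 9.29, 9.09, 9.34, 9.14 and 9.14 in fasted WAT. There all fasted arrays lay below the fed ones, by -0.24 on average (-0.38 to -0.11, adjusted p = 0.00666), which is 1.18-fold and under the minimum. In SM Col4a1 differed by -0.29 (-0.49 to -0.08, adjusted p = 0.0358, 1.22-fold) and Col4a2 by -0.22 (-0.37 to -0.08, adjusted p = 0.0224, 1.17-fold), both under the minimum too. In LIV they differed by -0.15 (-0.35 to 0.05) and 0.04 (-0.11 to 0.19). With fasted SM 1 left out in place of fasted SM 5, Col4a1 was called in SM (-0.40, adjusted p = 0.00192). Col4a3 to Col4a6, which form the other networks known from kidney, lens and smooth muscle, differed by -0.13 to 0.18 in the 3 tissues and none was called.

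**Figure D3:**
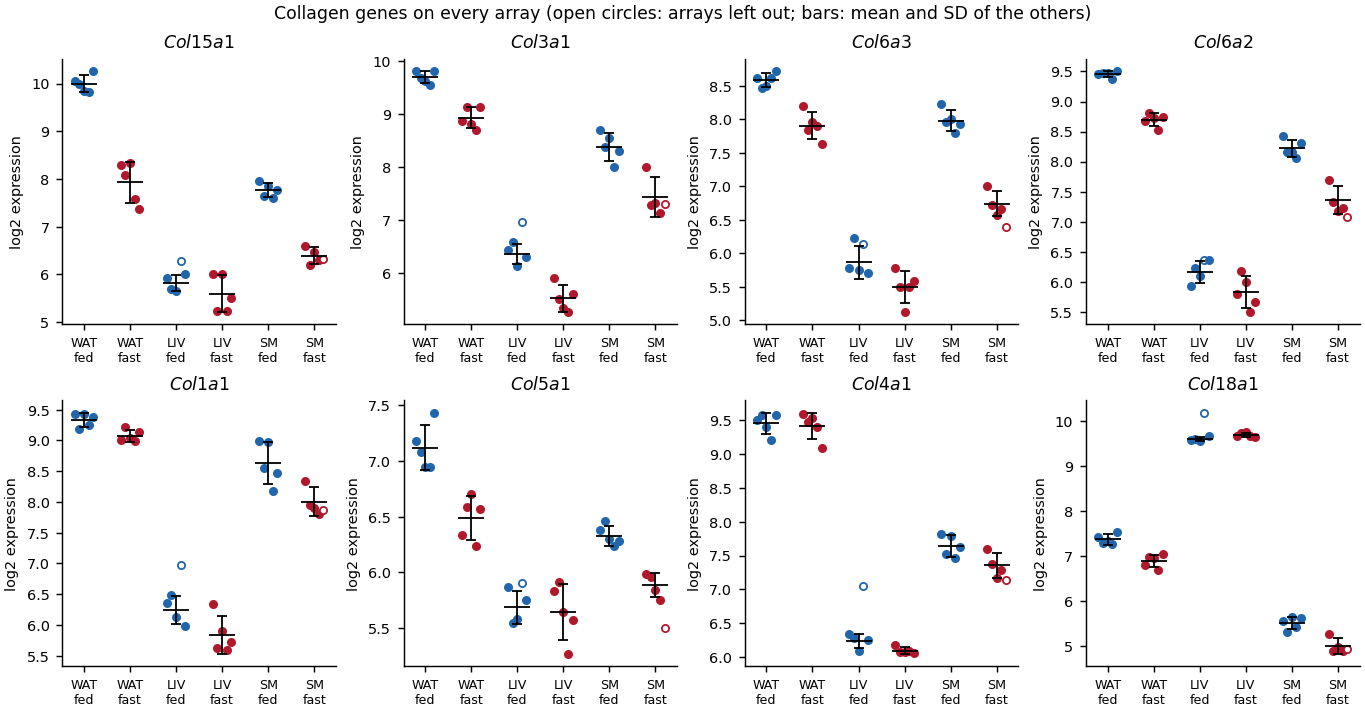
Log2 expression of 8 collagen genes on every array of fed (blue) and fasted (red) WAT, LIV and SM, with bars for the mean and SD of the arrays used and open circles for the 2 arrays left out. Col15a1, Col3a1, Col6a3 and Col6a2 separate fed from fasted mice in WAT and SM, Col4a1 does not in WAT, and the open circle of fed LIV 4 lies above the other fed LIV arrays for Col4a1 and Col18a1.

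Col15a1 had the largest fall of the collagens in WAT and in SM. Type XV collagen lies at the outer face of the basement membrane of capillaries, adipocytes and muscle fibers, and mice without it have fragile muscle. In WAT Col15a1 was 10.06, 10.00, 9.84, 9.83 and 10.27 in fed mice and 8.29, 8.08, 8.34, 7.58 and 7.38 in fasted mice. In SM it was 7.96, 7.64, 7.86, 7.61 and 7.76 in fed mice and 6.60, 6.20, 6.46 and 6.30 in fasted mice. The lowest fed array stood more than 1 log2 unit above the highest fasted array in both tissues. Col15a1 fell by 2.07 in WAT (SE 0.17, adjusted p = 3.18e-10, 4.19-fold) and by 1.37 in SM (SE 0.18, adjusted p = 1.02e-06, 2.59-fold).

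In LIV Col15a1 was 5.91, 5.69, 5.66 and 6.01 in fed mice and 6.01, 5.24, 6.00, 5.24 and 5.50 in fasted mice, with a difference of -0.22 (-0.58 to 0.14, adjusted p = 0.485). The fasted LIV arrays split into 2 at the fed level and 3 below it. The change of Col15a1 in WAT was below that in LIV by 1.84 (SE 0.24, adjusted p = 3.21e-06), and the change in SM was below that in LIV by 1.15 (SE 0.25, adjusted p = 0.00149). WAT was below SM by 0.69 (SE 0.24, adjusted p = 0.0485), a call that was lost with all 30 arrays (-0.68, adjusted p = 0.0580) and with many single arrays left out.

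Col18a1, the other gene of the zone, fell in the 2 tissues where its level was lower. It was 7.42, 7.28, 7.33, 7.27 and 7.54 in fed WAT and 6.80, 6.97, 6.95, 6.70 and 7.04 in fasted WAT. The same gene was in SM at 5.56, 5.32, 5.64, 5.42 and 5.63 in fed mice and 5.26, 4.89, 4.98 and 4.88 in fasted mice. Neither pair of groups overlapped. It fell by 0.48 in WAT (adjusted p = 1.85e-05, 1.39-fold) and by 0.51 in SM (adjusted p = 2.21e-05, 1.42-fold). In LIV, its main site among the 3, it was 9.59, 9.60, 9.57 and 9.67 in fed mice and 9.65 to 9.76 in fasted mice, with a difference of 0.09 (-0.08 to 0.25, adjusted p = 0.555). The changes in WAT and SM lay below that in LIV by 0.57 (adjusted p = 0.000477) and 0.60 (adjusted p = 0.000406).

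Among the fibril-associated collagens Col14a1 fell in LIV, where its fed level was highest. It was 8.61, 8.56, 8.35 and 8.32 in fed LIV and 8.11, 8.14, 7.70, 7.94 and 7.97 in fasted LIV, without overlap, and fell by 0.49 (SE 0.12, adjusted p = 0.00656, 1.40-fold). In WAT it differed by -0.18 (-0.42 to 0.05) and in SM by -0.23 (-0.48 to 0.02). With fasted SM 1 left out in place of fasted SM 5 the SM difference was -0.53 (adjusted p = 0.00312).

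Col12a1, which binds type I fibrils in tendon and other tissues under load, was 4.33 to 4.73 in fed LIV and 3.99 to 4.27 in fasted LIV with all arrays shown, a difference of -0.37 (adjusted p = 0.0166) just under 1.3-fold. In WAT it differed by 0.21 (adjusted p = 0.124) and in SM by 0.10 (adjusted p = 0.582). The WAT and SM differences lay above the LIV one by 0.58 (adjusted p = 0.00456) and 0.47 (adjusted p = 0.0281). The other 6 fibril-associated genes differed by -0.20 (Col22a1 in SM) to 0.26 (Col9a2 in LIV, where the fasted arrays all lay above the fed ones) and none was called. For Col20a1 the brighter probe set differed by 0.06 in WAT, while the dimmer one, at 4.83 in fed and 5.26 in fasted WAT, was called higher by 0.43 (adjusted p = 2.42e-05), so its probe sets disagree.

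The short-chain collagens Col8a1, Col8a2 and Col10a1 were not called. Col8a1, known from vessel walls and the cornea, was 5.94 to 6.49 in fed WAT and 5.60 to 7.17 in fasted WAT (difference 0.19, -0.25 to 0.64), and fasted SM 1 at 6.46 stood above all other SM arrays, whose highest was 5.64. The 4 transmembrane collagens differed by -0.20 (Col23a1 in WAT) to 0.21 (Col13a1 in LIV) and none was called. Col28a1, known from peripheral nerve, was 4.33, 4.24, 4.38, 4.11 and 4.19 in fed SM and 4.64, 4.62, 4.60 and 4.58 in fasted SM. All fasted arrays lay above the fed ones by 0.36 (SE 0.09, adjusted p = 0.00387), 1.29-fold and so just under the minimum, at a level below the median probe set.

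Counted by overlap rather than by the fit, all fasted arrays lay below all fed arrays for 10 members in WAT (23.8%, against 10.1% of all genes), 4 in LIV (9.52%, against 7.41%) and 9 in SM (21.4%, against 10.4%). All fasted arrays lay above for 0 members in WAT (against 11.6% of all genes), 1 in LIV (Col9a2, against 9.92%) and 1 in SM (Col28a1, against 12.5%).

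Differences of the fasting change between tissues were called for 6 members between WAT and LIV (14.3%, against 16.1% of all genes), 5 between WAT and SM (11.9%, against 15.1%) and 7 between SM and LIV (16.7%, against 15.3%). These shares are near the background, and several of the calls were lost under other settings, as given in the section on processing. Of the 7 between SM and LIV, 6 lay further down in SM (Col15a1, Col18a1, Col6a1, Col6a2, Col6a3 and Col6a6), or 14.3% against 7.29% of all genes, and Col12a1 lay the other way (2.38%, against 7.98%). Between WAT and LIV 5 lay further down in WAT (Col15a1, Col18a1, Col5a1, Col5a3 and Col6a1), or 11.9% against 7.90%, and Col12a1 alone lay the other way (2.38%, against 8.18%). Between WAT and SM 3 lay further down in WAT (Col5a3, Col15a1 and Col28a1, 7.14% against 7.70%) and 2 further down in SM (Col6a3 and Col6a4, 4.76% against 7.37%).

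Genes that act on collagen were called in both directions. As background for these lists, 7.75% of all genes fell and 7.99% rose in WAT, 4.01% and 3.53% in LIV and 5.78% and 7.80% in SM. The lists were not tested as sets. Of 16 measured genes of folding and modification 3 fell and 1 rose in WAT, 1 fell in LIV, and 2 fell and 1 rose in SM. Serpinh1, the chaperone Hsp47 that binds the newly folded triple helix, fell in all 3 tissues: from 8.45 ± 0.12 to 7.44 ± 0.08 in WAT, from 5.37 ± 0.10 to 4.77 ± 0.21 in LIV and from 6.85 ± 0.12 to 6.03 ± 0.24 in SM. These falls were 1.02 (adjusted p = 3.45e-09), 0.60 (adjusted p = 0.000101) and 0.82 (adjusted p = 4.88e-07). Crtap, part of the complex that 3-hydroxylates proline in collagen, fell by 0.58 in WAT and 0.61 in SM. Colgalt2, a collagen galactosyltransferase, fell by 0.55 in WAT, where Plod2, a lysyl hydroxylase for cross-links, was higher by 0.45 (adjusted p = 0.000855). P3h4 was higher by 0.71 in SM (adjusted p = 2.09e-06). The prolyl 4-hydroxylase genes P4ha1, P4ha2, P4ha3 and P4hb were not called in any tissue.

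Of 11 measured genes of procollagen processing and cross-linking, 2 rose and 3 fell in WAT, 1 rose and 3 fell in LIV, and 2 rose and 2 fell in SM. Pcolce, which enhances the cutting of the C-propeptide by Bmp1, fell by 0.71 in WAT (adjusted p = 0.000124), 0.72 in LIV (adjusted p = 0.000583) and 0.74 in SM (adjusted p = 0.000192). Lox, the lysyl oxidase that cross-links collagen and elastin, moved the other way, from 8.68 ± 0.14 to 9.87 ± 0.33 in WAT and from 6.74 ± 0.50 to 7.65 ± 0.11 in SM, rises of 1.19 (adjusted p = 7.72e-06) and 0.91 (adjusted p = 0.000567). In LIV Bmp1 rose by 0.47 and Loxl4 fell by 0.83. Pcolce2, a relative of Pcolce, rose by 0.40 in WAT and 0.41 in SM and fell by 0.49 in LIV. Its SM call was lost with all 30 arrays (0.28, adjusted p = 0.128), with fasted SM 1 left out in place of fasted SM 5 (0.20, adjusted p = 0.307) and, under 1.3-fold, after cyclic loess (0.38) and without fed SM 3 or 4 or fasted SM 1 or 4 (0.35 to 0.38). Tll1, a protease related to Bmp1, fell by 0.44 in WAT and Adamts3, which cuts the N-propeptide, by 0.61 in SM. The Tll1 call was lost without fed WAT 1 (-0.37) and with the mural marker mean as a covariate (-0.33), and the Adamts3 call when the probe sets of the gene were averaged (-0.38). Loxl1, a lysyl oxidase relative, was at -0.42 in WAT with an adjusted p of 0.0478, which rose above the threshold with all 30 arrays (0.0653), with unmoderated variances (0.0709), with that covariate (0.487) and with most single arrays left out (up to 0.158).

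Of 9 small proteoglycans that bind fibrils, Lum (lumican) fell by 0.62 in WAT and 0.86 in SM and Prelp by 0.58 in WAT, while Omd (osteomodulin), at a low level, rose in WAT, LIV and SM by 0.47, 0.78 and 0.48. The Prelp call was lost with each tissue fitted on its own (adjusted p = 0.0585) and without fasted WAT 4 (-0.38, adjusted p = 0.0679), and the SM call of Omd with the adipocyte marker mean as a covariate (0.38, adjusted p = 0.0508). With the mural marker mean as a covariate Lum (-0.42, adjusted p = 0.0835) and Prelp (-0.44, adjusted p = 0.146) were not called in WAT. Dcn (decorin) and Bgn (biglycan) were not called in any tissue. Of 16 listed partners in basement membranes 14 were measured. Of these 2 rose in WAT (the laminin chains Lama1 by 0.67 and Lama5 by 0.45), 2 rose and 3 fell in LIV and 3 fell in SM. The study gives Nid2, a listed partner, as lower in WAT, LIV and SM. No level or change of Nid2 is reported here, so its absence from these calls does not show that it was unchanged. In LIV the laminin chains Lamb3 and Lamc3 rose by 0.80 and 0.42 and Lama3 fell by 0.44. The Lamc3 call was lost with all 30 arrays (0.28, adjusted p = 0.104) and without fasted LIV 2 (0.36), and the Lama3 call without fed LIV 5 (-0.36). Sparc, a collagen-binding matricellular protein, fell by 0.61 in LIV and 0.47 in SM and was 12.68 ± 0.06 in fed and 12.63 ± 0.06 in fasted WAT. Hspg2 (perlecan) fell by 0.40 and Lama4 by 0.45 in SM. Under 1.3-fold the Hspg2 call was lost without fasted SM 3 (-0.34), the SM call of Sparc without fasted SM 4 (-0.37) and those of Sparc (-0.27) and Lama4 (-0.32) with the adipocyte marker mean as a covariate.

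Of 10 genes of collagen breakdown Mmp14, a membrane-bound collagenase, rose by 0.39 in WAT and 0.42 in LIV, Mmp9, a gelatinase, fell by 0.51 in SM, and the others were not called. The Mmp9 call was lost with each tissue fitted on its own (adjusted p = 0.0937), without fed SM 1 (-0.35, adjusted p = 0.0744), fasted SM 3 (-0.40, adjusted p = 0.107) or fasted SM 4 (-0.50, adjusted p = 0.0502), and with the adipocyte marker mean as a covariate (-0.36, adjusted p = 0.135). The LIV call of Mmp14 was lost with all 30 arrays (0.31, adjusted p = 0.0721) and without fed LIV 1 (0.38) or fasted LIV 3 (0.37), and its WAT call, under 1.3-fold, after cyclic loess, with the mural marker mean as a covariate and without fed WAT 2 or 4 or fasted WAT 2, 3 or 4 (0.36 to 0.38). Of 5 inhibitors Timp4 rose by 0.68 in SM (adjusted p = 3.69e-05), and 0 were called in WAT or LIV. There Timp3 was at 0.27 in WAT (adjusted p = 0.0321, under 1.3-fold) and 0.22 in LIV, Timp1 at -0.10 in WAT and Timp4 at 0.28 in LIV. Of 8 measured collagen receptors Ddr1, a receptor kinase, fell by 0.76 and Itga11, an integrin chain, rose by 0.75 in WAT. In LIV Lair1 was at -0.41 (adjusted p = 0.00431), a call that was lost with all 30 arrays (-0.37, under 1.3-fold) and without fed LIV 1 (-0.34) or fasted LIV 3 (-0.36). Itga2, an integrin chain, was at 0.41 in LIV with an adjusted p of 0.0494, which was above the threshold with all 30 arrays (0.0747), with fasted SM 1 left out in place of fasted SM 5 (0.077), with unmoderated variances (0.0713), after cyclic loess (0.0758) and with most single arrays left out (up to 0.175). In SM 0 were called, with Itga2 at -0.25 (adjusted p = 0.223) and Itga1 at -0.25 (adjusted p = 0.00766, under 1.3-fold). Of 15 measured genes of TGF-beta signaling, the main known inducer of fibrillar collagen, 1 rose and 1 fell in WAT, 1 rose in LIV, and 3 rose and 2 fell in SM. In WAT the ligand Tgfb3 fell by 0.55, a call that was lost without fasted WAT 1 (-0.44, adjusted p = 0.0531) and with the mural marker mean as a covariate (-0.20), and Skil, a repressor of the pathway, rose by 0.40, a call that was lost, under 1.3-fold, after cyclic loess, with that covariate and without fasted WAT 2 or 4 (0.35 to 0.38). In SM the ligand Tgfb2 fell by 0.70 and the co-receptor Tgfbr3 rose by 0.65. Smad3, which carries that signal to the nucleus, fell by 1.23 in SM (SE 0.07, adjusted p = 9.06e-13) and was not called in WAT (-0.01) or LIV (-0.26). Ccn2, a target of the pathway, rose by 1.26 in LIV (adjusted p = 0.00077) and 0.74 in SM (adjusted p = 0.0331). The SM call of Ccn2 was lost with all 30 arrays (0.64, adjusted p = 0.0556), with fasted SM 1 left out in place of fasted SM 5 (0.53, adjusted p = 0.150), with unmoderated variances (adjusted p = 0.0549), with the adipocyte marker mean as a covariate (adjusted p = 0.0722) and without fed SM 2 or fasted SM 1, 2 or 4 (0.56 to 0.73, adjusted p = 0.0629 to 0.115).

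**Figure D4:**
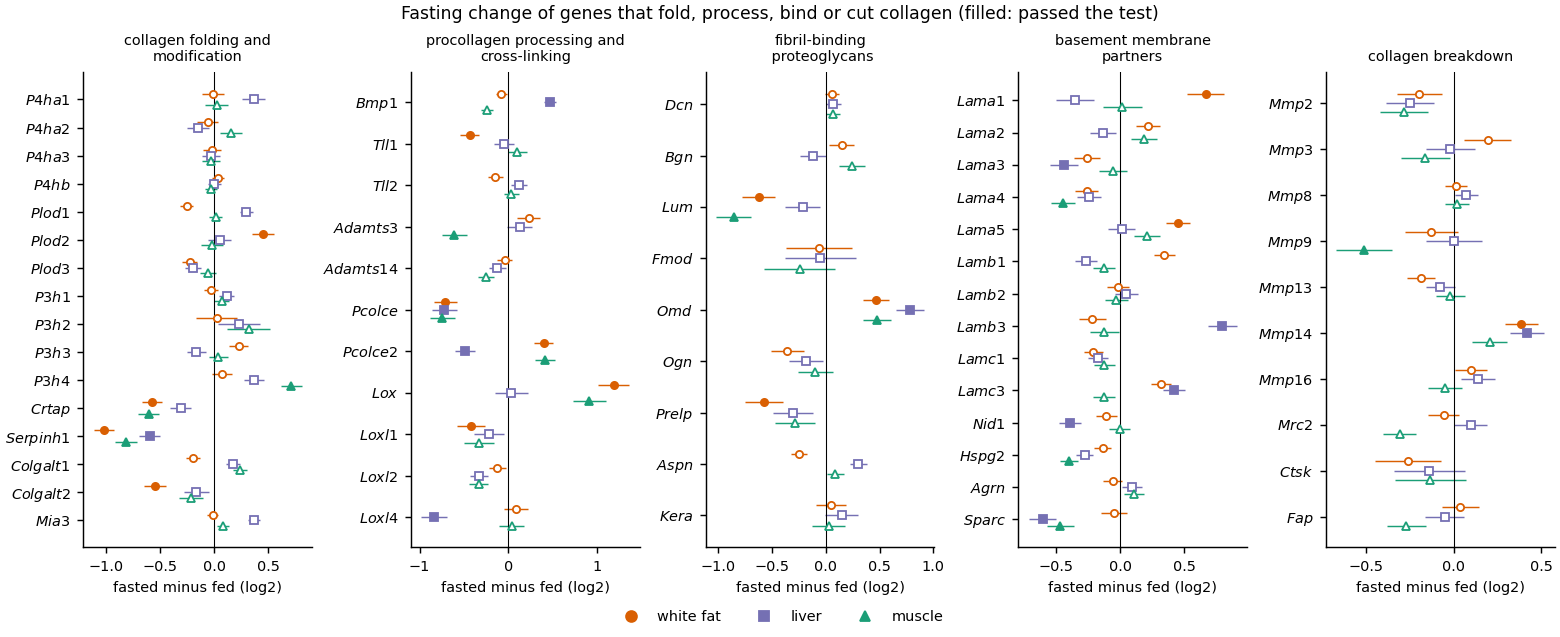
Fasted minus fed log2 change of genes that fold, process, bind or cut collagen or share its basement membranes, in WAT (circles), LIV (squares) and SM (triangles), with bars for the standard error. Filled symbols passed the test, and Serpinh1 and Pcolce are filled at the left of 0 in all 3 tissues while Lox is filled at the right in WAT and SM.

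Markers of the cells that could carry these transcripts were measured beside them. The mean of 9 fibroblast markers was 9.17 to 9.22 in fed and 9.00 to 9.36 in fasted WAT, and 8.13 to 8.47 in fed and 8.03 to 8.45 in fasted SM. Of these markers Thy1 and Lum were called lower in WAT and SM, Dpp4 and Mfap5 higher in WAT, and 0 of 9 markers were below the median probe set there. The mean of 8 endothelial markers was 9.57 to 9.76 in fed and 9.64 to 9.87 in fasted WAT. The mean of 7 mural markers had a median of 8.78 in fed and 7.88 in fasted WAT, with Cspg4 and Rgs5 called lower. Of 8 endothelial markers in SM, Kdr and Egfl7 were called lower. Of 11 macrophage markers 3 were called higher in WAT. With the mural mean as a covariate in WAT, added after seeing the data, 9 members were lower in WAT (21.4%, against 6.4% of all genes) instead of 10, Col6a6 being lost, and the Col15a1 difference was -2.30.

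In SM the mean of the adipocyte markers had a median of 9.00 in fed and 8.29 in fasted mice, and 3 of its 10 genes (Plin1, Lep and Retn) were called lower. With that mean as a covariate, also added after seeing the data, 9 members were lower in SM (21.4%, against 5.46% of all genes) instead of 11 and 1 was higher (Col28a1, 2.38% against 7.53%). Col1a2 (-0.26, adjusted p = 0.122) and Col5a2 (-0.24, adjusted p = 0.0588) were then not called, while Col6a3 was at -1.13, Col15a1 at -1.28 and Col3a1 at -0.74, all called. The mean of 7 slow fiber markers ranged from 5.39 to 10.2 in fed SM and from 8.34 to 9.86 in fasted SM, and its part in the SM changes was not tested. With fasted SM 1, the array that the text of the study names, left out in place of fasted SM 5, 14 members fell in SM (33.3%, against 6.55% of all genes) instead of 11, the added ones being Col4a1, Col5a3 and Col14a1. Fasted SM 1, the fasted array with the highest Col1a1, Col1a2 and Col3a1, had a mural marker mean of 8.44 against 7.10 to 7.54 on the other fasted SM arrays used.

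In LIV, where Col3a1 and Col14a1 fell, 3 of 7 hepatic stellate cell markers were called lower (Lrat, Colec11 and Ngfr) and 1 higher (Hand2). The mean of the 7 was 7.05 to 7.40 in fed and 6.84 to 7.20 in fasted LIV, and 0 of them were below the median probe set there. Lrat, which stores vitamin A in stellate cells, fell from 8.14 ± 0.26 to 7.35 ± 0.15 (-0.78, adjusted p = 5.74e-06). Of the 9 fibroblast markers Pdgfrb, a growth factor receptor of stellate cells, fell by 0.54 in LIV. Pdgfra of the same list was called higher in LIV, and the other 7 were not called. Of 11 macrophage markers 5 were called lower in LIV, among them Adgre1 by 0.78. The part of these markers in the Col3a1 and Col14a1 changes was not tested.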

How the data were processed

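Per the labels and the study's methods, total RNA of each tissue piece (150 ng) was hybridised to Mouse Gene 1.1 ST arrays, and the authors deposited log2 expression values of 28815 probe sets on 30 arrays, made with RMA (background correction, quantile normalization and summarization) in Partek, whose version is not given in the sources used here. Those values were used as deposited. Gene names came from the platform annotation: 21153 probe sets name 1 gene, 1867 several, and 5795 are not listed and stay unnamed. Groups came from the labels, and no label says whether equal numbers in different tissues mark 1 mouse. The study left out 1 fed liver and 1 fasted muscle array. Its text names fasted SM 1, but fasted SM 5 was left out here, since it stands apart by its correlation with its group (mean r 0.980, others at least 0.991) and its lymphocyte markers, and since earlier work on these data had pointed to it. The other choice, without fasted SM 1, is among the settings tried.

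The means of the 6 groups were fitted with limma 3.58.1 in R 4.3.3 (eBayes, prior df 4.24, residual df 22) on all probe sets, and all p-values are Benjamini-Hochberg adjusted over them, including differences between tissues. A call needs an adjusted p under 0.05 and at least 1.3-fold. Values after ± are SD, the bars of each plot are as its caption states, intervals are 95%, and the 4 or 5 arrays per group limit the precision. The fit was tested on simulated data. No array equalled another. Named genes are all members and, of each partner list, up to 4 called genes with the largest change per tissue, or the 2 largest changes where none was called, with Serpinh1, Pcolce and Sparc always. P4ha1, P4ha2, P4ha3, P4hb, Dcn, Bgn, Pcolce2 in WAT and Smad3 in WAT and LIV were named beyond it after their values were seen. The markers quoted by name are the called ones. Members, lists and this rule were chosen with earlier results of these data known. Alternatives were all 30 arrays, unmoderated variances, each tissue alone, replicate blocks, a filter on dim probe sets, cyclic loess, other minimum folds, averaged probe sets, each array left out and, chosen after seeing the data, marker means as covariates.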

Additional observations from a re-analysis of the deposited data

Results flagged for a closer look

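On single arrays, 13 values of 12 collagen genes stood apart from the rest of their group by Dixon's criterion, among 252 groups tested, and chance alone would mark about 1 group in 20. In WAT the fasted array 5 stood apart for Col6a5 (7.72, others 5.38 to 5.65) and for its neighbor Col6a6 (6.75, others 6.03 to 6.15), and its mural marker mean was high as well (9.07). Fasted WAT 4 was low for Col11a1 (3.61, others 3.78 to 3.83) and fasted WAT 3 was high for Col13a1 (4.71, others 4.45 to 4.51). In SM the fasted array 1 was high for Col1a2 (8.50, others 7.98 to 8.03). Fed SM 2 was high for Col10a1 (4.31, others 4.08 to 4.13), fed SM 1 high for Col8a2 (4.47, others 4.08 to 4.15) and fed SM 4 low for Col4a5 (4.62, others 4.85 to 4.91).

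In LIV the fed array 2 was high for Col6a3 (6.23, others 5.70 to 5.78), fed LIV 3 low for Col2a1 (5.18, others 5.37 to 5.41) and fed LIV 5 high for Col4a2 (6.63, others 6.47 to 6.50). Fasted LIV 1 was high for Col4a1 (6.18, others 6.05 to 6.09) and fasted LIV 3 for Col8a2 (4.55, others 4.09 to 4.22). The part of any technical difference in these values was not tested.

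The fasting change itself differed between tissues for the following members, by the limma contrast of the changes. Taken as WAT minus LIV on the log2 scale, the difference was -1.84 for Col15a1, -0.59 for Col5a1, -0.57 for Col18a1, -0.49 for Col5a3, -0.48 for Col6a1 and 0.58 for Col12a1. Taken as WAT minus SM, it was -0.69 for Col15a1, -0.49 for Col5a3, -0.49 for Col28a1, 0.56 for Col6a3 and 0.45 for Col6a4. Taken as SM minus LIV, it was -1.15 for Col15a1, -0.87 for Col6a3, -0.70 for Col6a6, -0.60 for Col18a1, -0.56 for Col6a1, -0.54 for Col6a2 and 0.47 for Col12a1. Several of these calls were lost under other settings, as given below.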

How the results depend on the processing

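Over 200 results on single genes, 2121 of 2244 values under other settings and 5478 of 5600 with 1 array left out kept their side of the threshold. In 0 cases did a result called in either fit change direction. Results that were not called could change sign, as Col6a5 in WAT did, with a range of -1.33 to 0.11. The count of members lower in fasted LIV was 2 in the report (4.76%, against 4.01% of all genes) and 6 with all 30 arrays (14.3%, against 3.32%). It was 4 after cyclic loess within tissues, 5 with no minimum fold (11.9%, against 6.91%) and 1 at 1.5-fold. It was 4 without fed LIV 1 or fed LIV 5 and 6 without fasted LIV 1 (14.3%, against 4.2%), a range of 2 to 6. The count lower in SM was 7 at 1.5-fold and 9 to 11 with single arrays left out, and that in WAT 10 to 11 with single arrays left out. At 1.5-fold Col5a2, Col6a1 and Col18a1 lost their WAT calls. Where a count in this section has no share here or above, the share of all genes under that setting was not counted. That share moves with the setting, so such a count cannot be read as a change particular to the collagens. The count higher in SM was 1 (Col28a1) after cyclic loess, with no minimum fold, with the adipocyte marker mean as a covariate, and without fed SM 1 or fed SM 3, a range of 0 to 1. The count higher in WAT was 1 with no minimum fold, and the counts higher in LIV and in WAT stayed at 0 with each single array left out.

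Of the differences between tissues, the count for WAT and SM (5) was 2 with all 30 arrays, 2 with fasted SM 1 left out in place of fasted SM 5, 3 with dim probe sets left out and 1 at 1.5-fold, and it ranged from 3 to 5, the 3 coming without fed SM 2 or without fasted SM 3. At 1.5-fold the count for WAT and LIV was 2 and that for SM and LIV 4. With single arrays left out they ranged from 5 to 8 and from 4 (without fasted SM 3) to 8. With the replicate number as a block within each tissue, the WAT and SM count was 3 and no count of fasting changes within a tissue moved. The numbers were not taken as pairs: fed and fasted arrays of 1 number had residual correlations of -0.25 to 0.16, with 3 of 13 above 0.1. Under the block Col15a1 (WAT and SM, adjusted p = 0.0704), Col5a3 (WAT and SM, adjusted p = 0.0643) and Col12a1 (SM and LIV, adjusted p = 0.0931) lost their calls, as did the fasting changes of Loxl1 in WAT (adjusted p = 0.0502), Itga2 in LIV (adjusted p = 0.133) and Ccn2 in SM (adjusted p = 0.0944). With single arrays left out, the adjusted p for Col15a1 between WAT and SM ran from 0.0227 to 0.101. Between WAT and LIV the Col6a1 call was lost with all 30 arrays (-0.41, adjusted p = 0.0886). It was also lost without fed LIV 1 or 3, fasted WAT 1 or 4, or fasted LIV 1 or 2. Between SM and LIV several single arrays left out each cost the call of Col6a2, Col6a6 or Col12a1. The Col6a4 call between WAT and SM was lost with all 30 arrays and without fed SM 2. The cause of these changes was not tested, apart from the altered minimum fold and the arrays added or left out by construction.

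Members near the background signal, 18 of the 42, can hide changes that the arrays do not resolve, and a member that missed the test is not shown to be unchanged. Whole tissue gives no cell of origin, and 1 time point gives no course.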

Other observations

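Neighboring collagen genes did not change alike throughout. Col6a2 and Col6a1 on chromosome 10 differed by -0.76 and -0.58 in WAT, -0.33 and -0.10 in LIV and -0.87 and -0.67 in SM. Col3a1 and Col5a2 on chromosome 1 differed by -0.84 and -0.05 in LIV, where only Col3a1 was called. Col4a1 and Col4a2 on chromosome 8 differed by -0.04 and -0.24 in WAT and by -0.29 and -0.22 in SM.

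Among promoters of the collagen genes called lower in at least 1 tissue, 10 were matched in 12 windows. GGGCGG or its reverse stood in 58.3% of those windows, against 59.5% of all collagen windows, and this is given as a description with no test.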
